A study of Homo sapiens with 4 samples.

Results

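Homologous recombination rebuilds broken or collapsed DNA from an intact copy, the Fanconi anaemia pathway unhooks crosslinks between DNA strands, and the damage checkpoint halts the cell cycle while such work is done. Many genes of these pathways are transcribed mainly as cells enter and pass through S phase, when a sister chromatid is at hand, and E2F factors held by the RB protein are known regulators of several of them. Ribociclib blocks CDK4 and CDK6, the kinases that switch RB off; YW-LF is described in the title of the series as its derivative.

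The set described here comprises 43 genes chosen by name for their pathway: BRCA1, BRCA2 and their partners, the strand exchange factors, the MRE11-RAD50-NBN (MRN) complex and end resection factors, the BLM dissolvasome, the Fanconi anaemia proteins, the checkpoint kinases, and the chromatin marks and adaptors of DNA damage. They were found by symbol among 20263 Ensembl genes, each matching 1 row. The rule for membership uses no measured value, but the genes were chosen with earlier results of these data known. RNA sequencing was done on the established human cell line MDA-MB-231, from a triple-negative breast cancer, 24 h after addition of YW-LF (2 libraries) or of the solvent DMSO (2 libraries); cells of both groups grew in medium with 10% fetal bovine serum. The sources used here do not give the dose of YW-LF. The labels do not say that replicates were separate cultures, so p-values measure only how these samples vary, and that variation may be technical.

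The libraries held 34774542 to 40218240 counts. All 43 genes passed the filter on low counts, which left 13816 genes, and the lowest count of any of the 43 in a library was 63. The YW-LF libraries differed from each other more than the DMSO libraries did, with a Pearson correlation across genes in log2 CPM (counts scaled to library size and by the TMM factor of each library) of 0.907 for the YW-LF pair and 0.976 for the DMSO pair (genes are not independent replicates). The share of counts from mitochondrially encoded genes was 3.14% and 6.58% with YW-LF, against 8.68% and 21.7% with DMSO. Of 6 markers of the line (VIM, CD44, EGFR, AXL, CAV1 and MSN), all were detected in every library. They summed to 5193 and 7808 CPM with YW-LF and 9066 and 11243 CPM with DMSO. Their log2 fold change (YW-LF over DMSO) was negative for all 6, with a median of -0.69. The 6 markers expected low (ESR1, PGR, ERBB2, GATA3, FOXA1 and CDH1) summed to 80.2 and 35.2 CPM with YW-LF and 89.8 and 94.8 CPM with DMSO. Most of this was ERBB2, at 69.2 and 30.2 CPM with YW-LF and 71.9 and 64.3 CPM with DMSO. GATA3 had 3.08 and 4.01 CPM with YW-LF and 9.03 and 21.4 CPM with DMSO. Of 11 markers of other cell types, DCN and CD3E had 0 counts in every library; without CD68, which stood at 149 CPM or more in each library, the other 10 summed to 4.89 and 3.79 CPM with YW-LF and 5.05 and 3.59 CPM with DMSO.

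As a set, the recombination, Fanconi and checkpoint transcripts stood at a lower scaled level after YW-LF. Their summed level was 1232 and 1191 CPM in the YW-LF libraries, against 2171 and 2080 CPM in the DMSO libraries. These sums carry TMM factors of 1.25 and 0.838 with YW-LF and 1.08 and 0.886 with DMSO. They are not shares of all counts, and how close the YW-LF sums lie depends on that scaling. By role, the median log2 fold change (YW-LF over DMSO) was lowest in the BRCA1 and BRCA2 complexes (-1.43), the damage chromatin genes (-1.32) and the resection genes (-1.19), and highest in the Fanconi core (-0.30) and the checkpoint kinases (-0.47). For 28 of the 43 genes both YW-LF values were under both DMSO values (27.8% of all genes tested). For 2, RAD51B and CHEK2, both were above (28.0% of all genes tested), and for 13 the groups overlapped (44.2%). The log2 fold change, YW-LF over DMSO, was negative for 35 genes and positive for 8. Over the 13816 genes tested it was negative for 6563 and positive for 7253. The median of the 43 genes was -0.76, against 0.06 over all genes tested. Against the DMSO mean the median was -0.62 for YW-LF replicate 1, and -0.70 for the other YW-LF library. In bulk RNA, a smaller share of cells in S phase and less RNA of these genes per cell cannot be told apart.

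The main fit was edgeR on all 4 libraries, with the filter on low counts and treatment as the only term. In it, no single gene passed the test after adjustment. The quasi-likelihood test of edgeR, with p adjusted by Benjamini-Hochberg over 13816 genes, called 0 of the 43 lower and 0 higher (0.0% of all genes tested in either direction), and the lowest adjusted p of any gene was 0.117. At an unadjusted p under 0.05, 13 of the 43 were lower (9.01% of all genes tested were) and 0 were higher (11.5% were). DESeq2 gave an adjusted p to 13548 genes. Of the 43 it called 0 higher (6.02% of those 13548) and 7 lower (4.58%): H2AX, EXO1, BRIP1, BRCA1, RBBP8, BARD1 and XRCC2. The count of 13 moved with single libraries, as did the calls over all genes: it was 23 without YW-LF replicate 1 (26.2% of all genes tested were lower), 20 without YW-LF replicate 2 (18.7%), 5 without DMSO replicate 1 (3.39%) and 4 without DMSO replicate 2 (2.55%). In edgeR with 1 library left out, the genes called lower after adjustment numbered 20 without YW-LF replicate 1 (20.7% of all genes tested), 17 without YW-LF replicate 2 (10.2%), 1 without DMSO replicate 1 (0.194%) and 1 without DMSO replicate 2 (0.111%). In each of the fits without a DMSO library that gene was H2AX. The genes called higher numbered 1 without YW-LF replicate 1 (RAD51B; 21.0% of all genes tested) and 0 without YW-LF replicate 2 (10.1%), DMSO replicate 1 (0.318%) or DMSO replicate 2 (0.332%). Each fit with 1 library left out had a single library in 1 group. Its spread between replicates therefore came only from the pair of the other group. Without a YW-LF library, the wider spread of the YW-LF pair did not enter the test. The counts of such fits show how far calls moved, not how many genes differ. Without the mitochondrially encoded genes the median log2 fold change was -0.75. In that fit 13 of the 43 were again lower at an unadjusted p under 0.05 (8.97% of all genes tested were).

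**Figure D1:**
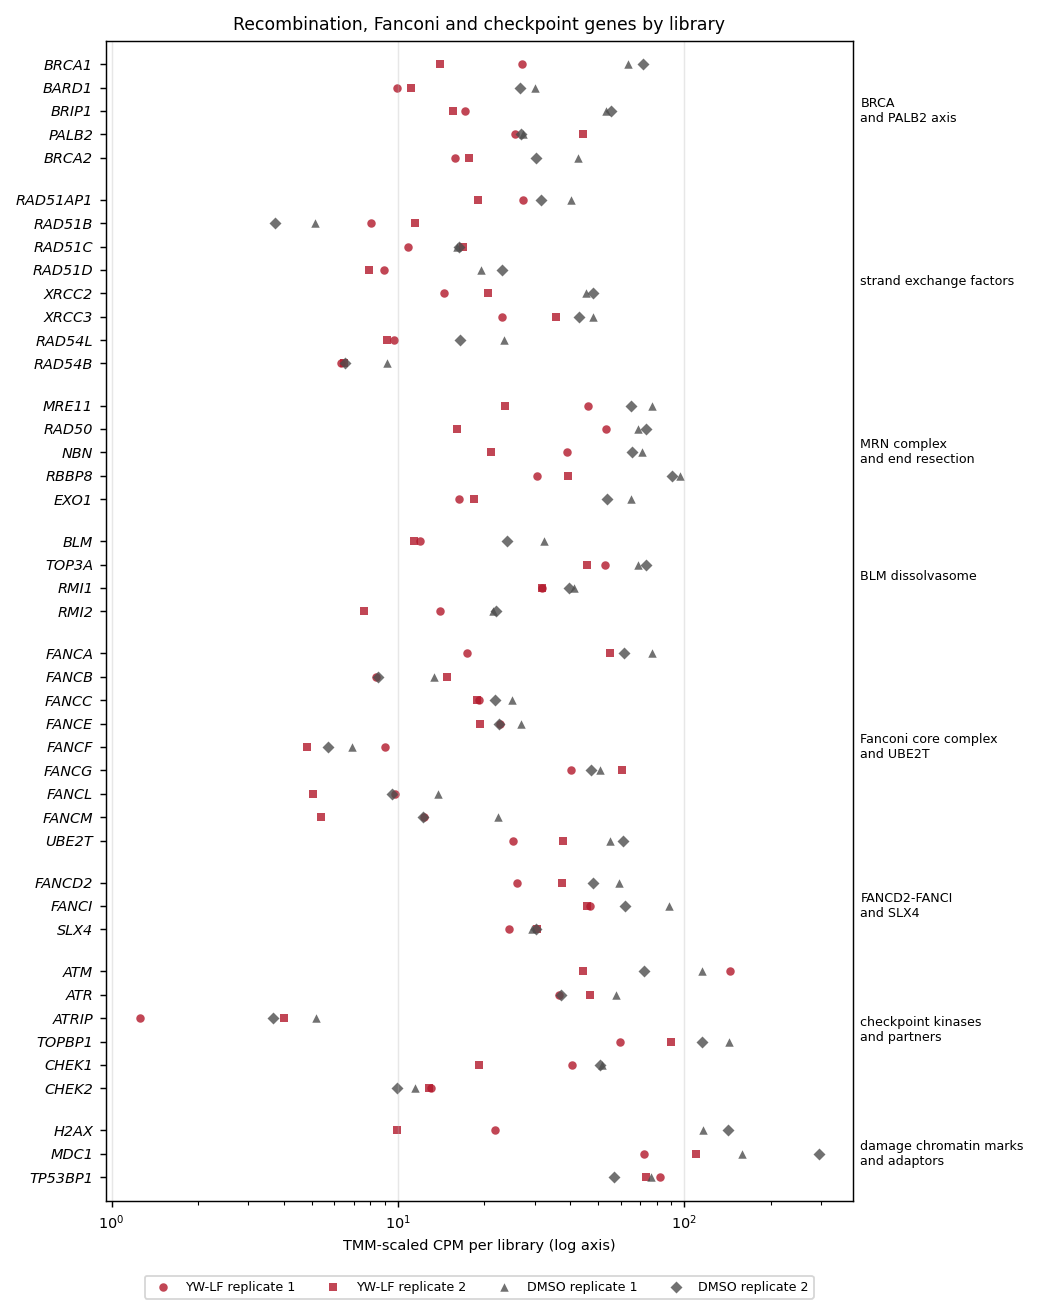
TMM-scaled CPM of each of the 43 genes in the 4 libraries, on a log axis, grouped by role; red circles and squares are YW-LF replicates 1 and 2, grey triangles and diamonds DMSO replicates 1 and 2. The red symbols lie left of both grey symbols for 28 genes and right of them for RAD51B and CHEK2.

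**Figure D2:**
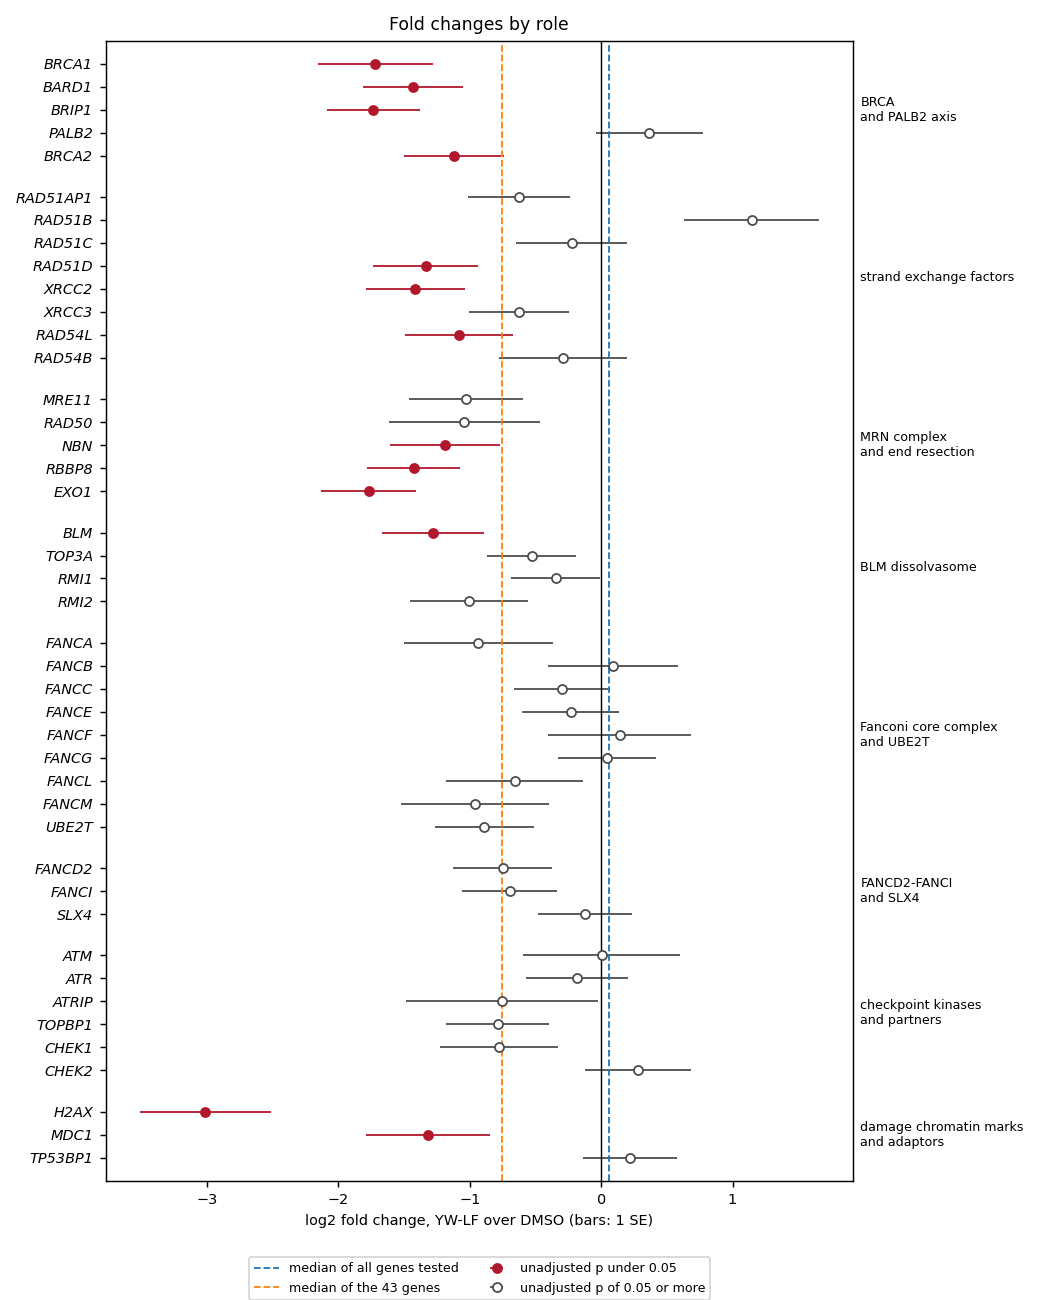
Log2 fold change of each gene, YW-LF over DMSO, with bars of 1 SE from edgeR; red filled points had an unadjusted p under 0.05. The 13 red points all lie below 0, H2AX lowest at -3.01, and the dashed lines mark the median of the 43 genes (-0.76) and of all genes tested (0.06).

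Promoter sequences, from 250 bases before to 50 bases after the start of the gene, were available from RefSeq (GRCh38.p14) for 39 of the 43 genes. They were read on both strands for 3 elements of cell cycle promoters: an E2F site (TTTGGCGC, TTTCCCGC, TTTGCCGC or TTTCGCGC), the cell cycle homology region or CHR (TTTGAA or TTCGAA) and the CCAAT box (CCAAT). An E2F match was found in 6 promoters (15.4%; EXO1, XRCC2, TOPBP1, FANCD2, FANCA and FANCC), against 5.24% of the promoters of genes tested and 3.33% of all 27305 promoters. A CHR match was found in 15.4% (11.3% of genes tested, 16.6% of all) and a CCAAT match in 48.7% (36.5% of genes tested, 35.7% of all). Of 12 promoters of genes that were lower at an unadjusted p under 0.05, 2 held an E2F match; of the 27 other promoters, 4 did. A match describes letters in this window and is not a binding site, and no match says nothing of a factor.

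The promoters of the 3 genes of lowest p and of the gene of highest p are shown, with matches in capitals. They read 5′ to 3′ on the strand of the gene. Each promoter shown holds a match, but RBBP8, of next lowest p, and FANCG, of next highest p, held no E2F, CHR or CCAAT match. ATM, of highest p, had its treated libraries on either side of the controls. H2AX (chr11:119095416-119095715, minus strand) has 1 CHR and 4 CCAAT matches. BRIP1 (chr17:61863479-61863778, minus strand) has 1 CHR and 3 CCAAT matches. EXO1 (chr1:241847954-241848253, plus strand) has 1 E2F match, read as TTTCGCGC. ATM (chr11:108222817-108223116, plus strand) has 1 CHR and 1 CCAAT match. No match in these 4 overlaps another.
H2AX: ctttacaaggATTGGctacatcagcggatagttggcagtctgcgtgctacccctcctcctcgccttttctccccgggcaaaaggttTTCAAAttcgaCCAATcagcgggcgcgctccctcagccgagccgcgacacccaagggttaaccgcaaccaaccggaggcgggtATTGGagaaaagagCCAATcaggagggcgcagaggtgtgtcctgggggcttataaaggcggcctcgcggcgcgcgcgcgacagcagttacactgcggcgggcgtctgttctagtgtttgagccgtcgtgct
BRIP1: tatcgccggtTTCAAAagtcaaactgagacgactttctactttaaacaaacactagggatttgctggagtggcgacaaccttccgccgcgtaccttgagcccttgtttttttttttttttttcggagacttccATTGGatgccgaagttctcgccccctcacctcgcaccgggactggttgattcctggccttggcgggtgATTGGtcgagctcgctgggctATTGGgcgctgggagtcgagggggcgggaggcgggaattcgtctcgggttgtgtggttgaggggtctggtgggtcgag
EXO1: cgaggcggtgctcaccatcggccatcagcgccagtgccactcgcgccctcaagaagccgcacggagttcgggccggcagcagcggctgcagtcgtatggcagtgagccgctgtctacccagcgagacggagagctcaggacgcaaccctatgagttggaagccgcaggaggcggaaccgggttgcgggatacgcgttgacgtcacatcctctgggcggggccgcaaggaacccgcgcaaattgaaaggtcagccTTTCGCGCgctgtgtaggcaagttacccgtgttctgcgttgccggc
ATM: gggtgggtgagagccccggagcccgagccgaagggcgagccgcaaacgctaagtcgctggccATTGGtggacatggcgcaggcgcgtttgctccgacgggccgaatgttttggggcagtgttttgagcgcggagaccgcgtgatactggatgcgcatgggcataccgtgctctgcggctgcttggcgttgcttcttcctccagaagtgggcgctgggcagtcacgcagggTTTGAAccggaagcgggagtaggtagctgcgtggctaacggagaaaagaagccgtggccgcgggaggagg

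The lowest p of the set belonged to H2AX, the histone variant whose phosphorylated form marks chromatin around a DNA break. H2AX (ENSG00000188486; chromosome 11, 119093854 to 119095467 in the GENCODE 29 annotation of GRCh38) stood at 21.9 and 9.94 CPM in the YW-LF libraries, against 116 and 142 CPM in the DMSO libraries. Both treated libraries were far below both controls, by 8.08-fold in the fit (log2 fold change -3.01, SE 0.50, edgeR unadjusted p = 0.000672 and adjusted p = 0.121; DESeq2 adjusted p = 1.2e-06). With 1 library left out its log2 fold change lay between -3.70 and -2.57. H2AX was the 1 gene of the 43 called when genes with a total count of at least 1 were kept (lower 0.718% of all genes, higher 0.927%). The same held with sample quality weights in limma-voom (0.405% and 1.27%) and with a replicate block in edgeR (1.05% and 1.35%). H2AX makes both a polyadenylated transcript and a histone-type one that ends in a stem-loop, and these counts do not separate them.

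Of the adaptors that act at the H2AX mark, MDC1 lay below DMSO and TP53BP1 did not. MDC1, which binds phosphorylated H2AX, had 72.2 and 110 CPM with YW-LF and 159 and 295 CPM with DMSO (log2 fold change -1.32, SE 0.47). The groups did not overlap, but the DMSO libraries lay apart, and the value was -1.69 when DMSO replicate 1 was left out, against -0.82 when DMSO replicate 2 was. TP53BP1 encodes 53BP1, which restrains resection and favours end joining. It stood at 82.2 and 73.4 CPM with YW-LF and 76.7 and 56.6 CPM with DMSO, so that the groups overlapped; 28.9% of its exon bases are shared with TUBGCP4 on the opposite strand, and the sources used here do not say whether the counting used strand.

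The 5 genes of the MRN complex and of end resection, which trim a break to single-stranded DNA, all lay below DMSO in both YW-LF libraries (27.8% of all genes tested did), with log2 fold changes between -1.77 and -1.03 and a median of -1.19. EXO1, the exonuclease of long-range resection, stood at 16.4 and 18.5 CPM with YW-LF and 65.1 and 53.9 CPM with DMSO (3.41-fold lower; log2 fold change -1.77, SE 0.36). Its adjusted p was 0.121 in edgeR and 0.00345 in DESeq2. RBBP8 encodes CtIP, which starts resection with MRN. It had 30.5 and 39.2 CPM with YW-LF and 96.8 and 90.6 CPM with DMSO (log2 fold change -1.43, SE 0.36; DESeq2 adjusted p = 0.0236). For both genes the treated replicates were close to each other and well apart from the controls.

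The 3 subunits of MRN itself showed a wider gap between the treated libraries, and YW-LF replicate 2 was the lower one for each. MRE11, the nuclease, was at 46.1 and 23.6 CPM with YW-LF and 77.0 and 65.2 CPM with DMSO. NBN, which recruits ATM to the complex, was at 38.8 and 21.1 CPM with YW-LF and 71.4 and 65.5 CPM with DMSO. RAD50, the ATPase that tethers the ends, was at 53.1 and 16.1 CPM with YW-LF and 68.9 and 73.6 CPM with DMSO. The log2 fold changes were -1.03 (SE 0.43) for MRE11, -1.19 (SE 0.42) for NBN and -1.04 (SE 0.58) for RAD50. That of RAD50 was -2.15 when YW-LF replicate 1 was left out, but -0.44 when YW-LF replicate 2 was, so its size rested on 1 library; the same pair of fits gave -1.59 and -0.64 for MRE11 and -1.70 and -0.83 for NBN. Of the exon bases of RAD50, 90.6% are also annotated to a second gene, ENSG00000283782, on the same strand, so its count is uncertain.

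Of the 5 genes of the BRCA1 and BRCA2 complexes, 4 were lower at an unadjusted p under 0.05 (9.01% of all genes tested were) and PALB2 was not. BRCA1, a ubiquitin ligase subunit that promotes resection (ENSG00000012048; chromosome 17, 43044295 to 43170245), had 27.0 and 14.0 CPM with YW-LF and 63.8 and 71.5 CPM with DMSO. The fitted log2 fold change was -1.72 (SE 0.44), with an adjusted p of 0.131 in edgeR and 0.0111 in DESeq2. BARD1, its obligate partner, had 9.89 and 11.1 CPM with YW-LF and 30.0 and 26.7 CPM with DMSO (-1.43, SE 0.38; DESeq2 adjusted p = 0.0335). BRIP1, a helicase that binds BRCA1 and is also known as FANCJ, gave close replicates in both groups. It was at 17.2 and 15.6 CPM with YW-LF and 53.3 and 55.7 CPM with DMSO (3.33-fold lower; -1.73, SE 0.35). Its adjusted p was 0.121 in edgeR and 0.00374 in DESeq2, and its log2 fold change stayed between -1.81 and -1.68 with any 1 library left out. BRCA2, a mediator of strand exchange, had 15.8 and 17.7 CPM with YW-LF and 42.5 and 30.3 CPM with DMSO (-1.12, SE 0.38). PALB2, the bridge between BRCA1 and BRCA2, stood at 25.5 and 44.4 CPM with YW-LF and 27.2 and 27.0 CPM with DMSO. Its treated libraries lay on either side of the controls (0.37, SE 0.41).

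The factors that assist strand exchange did not share 1 sign. XRCC2 was at 14.4 and 20.6 CPM with YW-LF and 45.5 and 47.8 CPM with DMSO (log2 fold change -1.42, SE 0.38; DESeq2 adjusted p = 0.0355). RAD51D, which works beside XRCC2 in the BCDX2 complex, was at 8.97 and 7.90 CPM with YW-LF and 19.5 and 23.2 CPM with DMSO (-1.34, SE 0.40). The other subunits of that complex stood elsewhere. RAD51B had 8.08 and 11.5 CPM with YW-LF and 5.13 and 3.71 CPM with DMSO (1.15, SE 0.51; edgeR unadjusted p = 0.0628 and adjusted p = 0.264). It was the 1 gene of the 43 with both treated libraries above both controls and a log2 fold change of 1 or more (14.6% of all genes tested), against 16 with both below and a log2 fold change of -1 or less (12.9%). RAD51C overlapped between groups, at 10.8 and 16.9 CPM with YW-LF and 16.1 and 16.3 CPM with DMSO. XRCC3, the partner of RAD51C in a second complex, had 23.1 and 35.7 CPM with YW-LF and 47.8 and 42.98 CPM with DMSO (-0.63, SE 0.38); 45.3% of its exon bases are shared with KLC1 on the opposite strand.

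Among the motor and accessory factors of strand exchange, RAD54L, a translocase that drives strand invasion, had 9.69 and 9.19 CPM with YW-LF and 23.6 and 16.4 CPM with DMSO (log2 fold change -1.08, SE 0.41). Of its exon bases, 18.0% are shared with LRRC41 on the opposite strand. RAD51AP1, which aids the pairing of DNA strands, was at 27.4 and 19.0 CPM with YW-LF and 40.2 and 31.5 CPM with DMSO (-0.63, SE 0.39). RAD54B, a relative of RAD54L, lay just below at 6.31 and 6.51 CPM with YW-LF and 9.19 and 6.52 CPM with DMSO; it shares 63.3% of its exon bases with FSBP on the same strand.

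The dissolvasome, which separates joined DNA molecules without crossing over, lay below DMSO in all 4 subunits (27.8% of all genes tested lay below both controls), and the size differed between them. BLM, its helicase, was at 11.9 and 11.4 CPM with YW-LF and 32.4 and 24.1 CPM with DMSO (log2 fold change -1.28, SE 0.39). RMI2, a small subunit, was at 14.0 and 7.64 CPM with YW-LF and 21.5 and 22.1 CPM with DMSO (-1.004, SE 0.45). TOP3A, the topoisomerase of the complex, was at -0.53 (SE 0.34) and RMI1 at -0.34 (SE 0.34). RMI1 had some of the closest values of the set, 31.7 and 31.9 CPM with YW-LF and 41.2 and 39.6 CPM with DMSO, and its difference was about as large as its SE.

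The Fanconi core complex, a ubiquitin ligase assembled at stalled forks, had the median closest to 0 of all roles. Of its 8 genes measured here and UBE2T, its ubiquitin-conjugating enzyme, 0 of 9 had an unadjusted p under 0.05 (9.01% of all genes tested were lower and 11.5% higher) and 6 overlapped between groups (44.2% of all genes tested did). With 9 genes these counts are not set apart from those shares; the median log2 fold change was -0.30. UBE2T was at 25.1 and 37.7 CPM with YW-LF and 54.9 and 61.3 CPM with DMSO (-0.89, SE 0.38; edgeR unadjusted p = 0.0527). FANCM, the translocase that finds the stalled fork, had the lowest value of the group, -0.96 (SE 0.57), at 12.3 and 5.41 CPM with YW-LF and 22.4 and 12.2 CPM with DMSO. FANCA, a scaffold of the core, was split, with 17.4 and 54.99 CPM with YW-LF and 76.9 and 61.6 CPM with DMSO. Leaving out YW-LF replicate 1 gave -0.34 and leaving out YW-LF replicate 2 gave -2.002 on the log2 scale, and it shares 22.4% of its exon bases with ZNF276 on the opposite strand. FANCL, the ligase subunit, was at -0.66 (SE 0.52) and shares 26.6% of its exon bases with VRK2 on the opposite strand. The other genes are further subunits of the core, of which FANCC was at -0.30 (SE 0.36) and FANCE at -0.23 (SE 0.37). FANCB was at 0.09 (SE 0.50), FANCF at 0.14 (SE 0.54) and FANCG at 0.04 (SE 0.37), with overlapping groups for each.

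FANCD2 and FANCI form the clamp that the core complex ubiquitinates. Both lay below DMSO in both YW-LF libraries (27.8% of all genes tested did). Neither had an unadjusted p under 0.05 (9.01% of all genes tested were lower and 11.5% higher). FANCD2 had 26.03 and 37.5 CPM with YW-LF and 59.0 and 48.0 CPM with DMSO (log2 fold change -0.75, SE 0.38). FANCI had 47.0 and 45.6 CPM with YW-LF and 88.1 and 61.95 CPM with DMSO (-0.70, SE 0.36), and shares 8.33% of its exon bases with POLG on the opposite strand. SLX4, the scaffold of the nucleases that act next, was at 24.4 and 30.5 CPM with YW-LF and 29.3 and 30.3 CPM with DMSO, with overlapping groups (-0.12, SE 0.36).

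Of the 6 checkpoint kinases and their partners, 0 had an unadjusted p under 0.05, which with 6 genes is near the shares over all genes tested (9.01% lower and 11.5% higher), and the signs of their log2 fold changes were mixed. TOPBP1, which activates ATR, was at 59.7 and 89.8 CPM with YW-LF and 143 and 115 CPM with DMSO (log2 fold change -0.79, SE 0.39). CHEK1, the effector kinase of ATR, was at 40.4 and 19.2 CPM with YW-LF and 51.7 and 50.6 CPM with DMSO (-0.78, SE 0.45), and its value was -1.42 if YW-LF replicate 1 was left out, but -0.35 if YW-LF replicate 2 was. CHEK2, the effector kinase of ATM, lay above both controls by a small margin, at 13.1 and 12.8 CPM with YW-LF and 11.4 and 9.95 CPM with DMSO (0.28, SE 0.40). ATM, the kinase that responds to double-strand breaks, had the treated libraries on either side of the controls, at 144 and 44.3 CPM with YW-LF and 116 and 72.2 CPM with DMSO. On the log2 scale this came to 0.0037 (SE 0.60), with -1.09 when YW-LF replicate 1 was left out and 0.60 when YW-LF replicate 2 was. ATR, the kinase of replication stress, overlapped between groups at 36.5 and 46.8 CPM with YW-LF and 57.6 and 37.1 CPM with DMSO. Its partner ATRIP had few counts, at 1.25 and 4.01 CPM with YW-LF and 5.18 and 3.68 CPM with DMSO, and shares 29.6% of its exon bases with TREX1 on the same strand.

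The treated libraries differed from each other gene by gene. The log2 ratio between replicates, taken without sign, had a median over the 43 genes of 0.53 in YW-LF and 0.25 in DMSO, and it was wider in YW-LF for 29 genes. This was not particular to the set: over all genes tested the standard deviation of the log2 ratio was 1.24 in YW-LF and 0.61 in DMSO. YW-LF replicate 1 was the further down of the treated libraries for 21 genes and YW-LF replicate 2 for 22. RAD50, ATM, ATRIP and FANCA had the widest gaps, each over 1.6 on the log2 scale. For 8 genes the treated libraries lay on opposite sides of the DMSO mean.

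**Figure D3:**
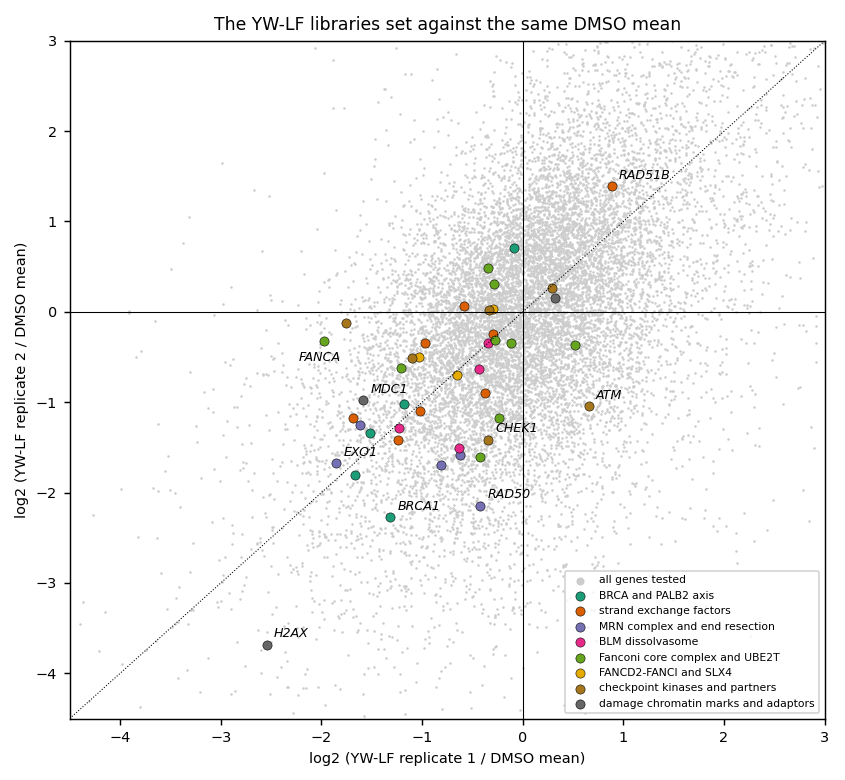
Log2 ratio to the DMSO mean in YW-LF replicate 1 (x axis) and YW-LF replicate 2 (y axis) for all genes tested (grey; genes outside the axis range are not drawn) and the 43 genes coloured by role. Both axes share the DMSO mean; of the 43 genes H2AX lies furthest down in both libraries, at -2.55 and -3.68, while ATM (0.66 and -1.04) and FANCA (-1.98 and -0.32) lie far from the dotted line of equality.

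**Figure D4:**
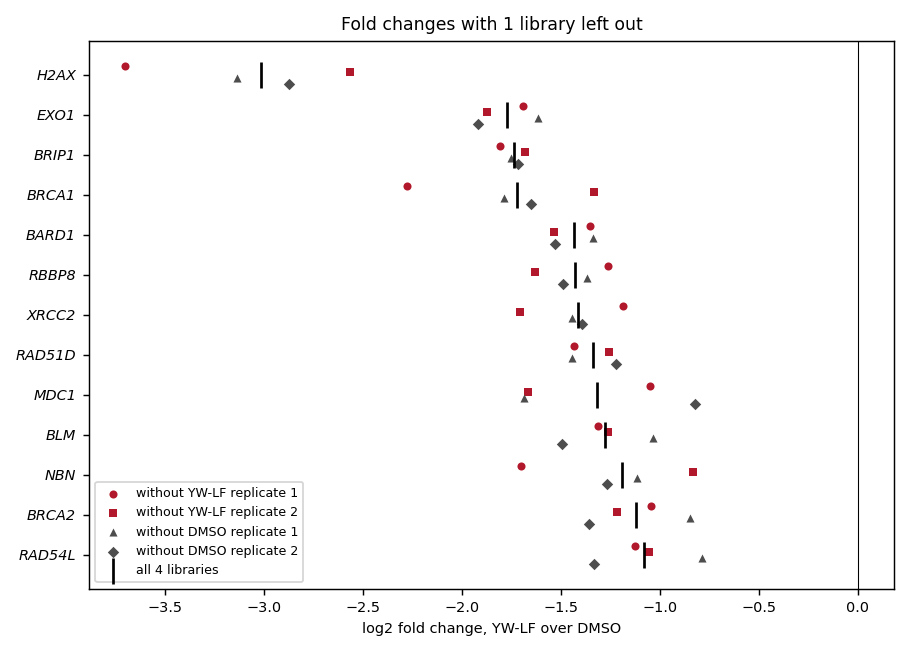
Log2 fold change of the 13 genes with an unadjusted p under 0.05 in fits without 1 library; red circles and squares are fits without YW-LF replicate 1 or 2, grey triangles and diamonds fits without DMSO replicate 1 or 2, and black bars the fit with all 4 libraries. Every point lies below 0, which follows from the choice of genes: for all 13, both YW-LF values lay under both DMSO values. H2AX ranges from -3.70 to -2.57 and BRIP1 from -1.81 to -1.68.

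Other genes of the pathways were read from a list of 62 partners (RPA, nucleases, helicases, ubiquitin signalling and checkpoint regulators), of which 61 passed the count filter. Over all genes tested 0 passed adjustment in the main edgeR fit. At an unadjusted p under 0.05, 9 partners (14.8%, against 9.01% of all genes tested) were lower and 2 (3.28%, against 11.5%) were higher, and the median log2 fold change was -0.18. Of the 61, 24 (39.3%, against 27.8% of all genes tested) lay below both controls and 12 (19.7%, against 28.0%) above. CLSPN, the adaptor through which ATR activates CHEK1, had 7.999 and 9.65 CPM with YW-LF and 76.8 and 99.2 CPM with DMSO (log2 fold change -3.32, SE 0.39). PAXIP1, an adaptor at damaged chromatin, had 28.6 and 28.8 CPM with YW-LF and 79.3 and 100.7 CPM with DMSO (-1.65, SE 0.36). DNA2, a nuclease of long-range resection like EXO1, had 9.21 and 6.51 CPM with YW-LF and 28.1 and 27.4 CPM with DMSO (-1.82, SE 0.41). Each was below both controls by more than the gap between replicates.

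Set beside 2 neighbouring groups, the 43 genes stood between them, as a description without a test. Their median log2 fold change was -0.76, against -0.18 for the 61 partners of the same pathways. Of 43 genes of the replication machinery, 24 (55.8%, against 9.01% of all genes tested) were lower and 0 (against 11.5%) higher at an unadjusted p under 0.05 and the median was -1.20; MCM3, a helicase subunit, was at -2.88 (SE 0.39), CHAF1B at -2.30 (SE 0.41) and MCM4 at -2.24 (SE 0.44). Of 55 genes of excision, mismatch and end-joining repair, 7 (12.7%) were lower and 8 (14.5%) higher, close to the 9.01% and 11.5% of all genes tested, and the median was -0.08. NEIL3, a glycosylase, was at -2.04 (SE 0.42), the mismatch repair gene MSH6 at -1.52 (SE 0.39), and MPG, another glycosylase, at 1.39 (SE 0.38). No gene of these lists passed adjustment over all genes in the main edgeR fit. Calls in the other fits are not given for these lists.

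**Figure D5:**
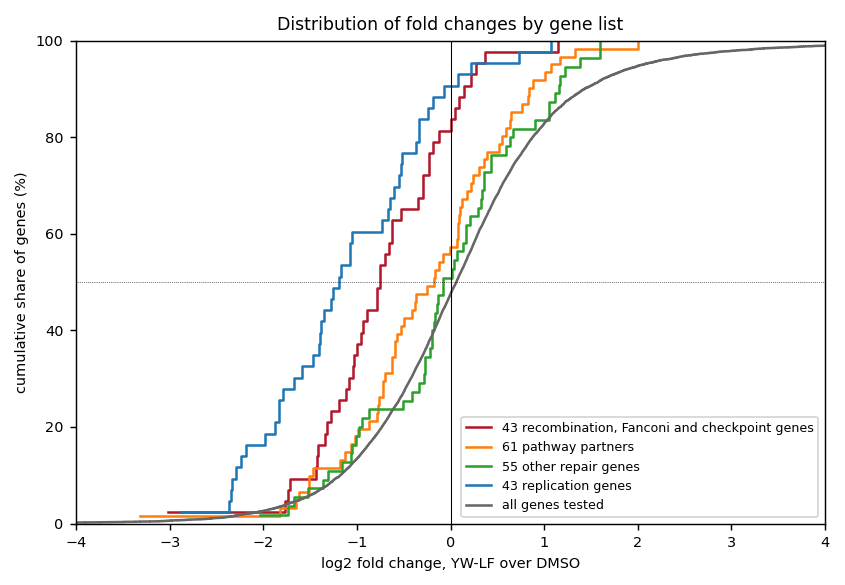
Cumulative share of genes (y axis, percent) at or below each log2 fold change, YW-LF over DMSO (x axis), for the 43 genes, 61 pathway partners that passed the count filter, 55 other repair genes, 43 replication genes and all genes tested. The curve of the 43 genes (median -0.76) runs between those of the replication genes (-1.20) and of the other repair genes (-0.08), which lies close to all genes tested (0.06). The pathway partners had a median of -0.18.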

How the data were processed

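RNA sequencing values were deposited by the authors as a count per Ensembl gene; they are whole numbers that sum to different totals, hence not normalized. The sources used here give neither aligner nor counting program nor annotation. GRCm38 and mm10, both mouse builds, stand in the submitters' processing notes, while all 20263 identifiers are human. Symbols came from a reference table (20148 matched). In the other deposited table, 2 columns match no sample's label and were left out.

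Genes passing filterByExpr (13816) were fitted over all 4 libraries with edgeR 4.0.16 (R 4.3.3): TMM scaling, quasi-likelihood F-test between the treatments, no covariates, Benjamini-Hochberg adjustment, threshold 0.05. The SE is the log2 fold change divided by the square root of F. CPM values carry the TMM scaling, and a prior count of 2 was added before taking log2. The alternatives are DESeq2 1.42.0, limma 3.58.1 (voom), other scalings and filters, a replicate block and leaving out each library. Exon overlaps and gene coordinates come from GENCODE 29 (basic set). The tests were run on simulated data first.

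The genes, lists and motifs were chosen with earlier results of these data known. Values in every library are given for genes with an unadjusted p under 0.05, for those whose groups do not overlap with a log2 fold change of at least 1 in size, and for the gene of largest change in each role, and also for other genes of the set, chosen after their values were seen; from the other lists the 3 genes of lowest p are named. A single count equals 0.0199 to 0.0324 CPM. Replicate libraries were not duplicates: chi-square over degrees of freedom was 570 in the YW-LF pair and 246 in the DMSO pair. Some genes of these lists are not reported here.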

Additional observations from a re-analysis of the deposited data

How the results depend on the processing

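All 14 alternatives gave values for the 43 genes, 602 in all; 17 of them had another sign than the reported values, in 8 genes whose log2 fold change lay between -0.23 and 0.37. FANCG was at -0.0069 with upper quartile scaling. ATM was at -0.010 with a total count of at least 1 as the filter, -0.20 with limma-voom, -0.18 with sample quality weights and -0.19 with the replicate block. With 1 library left out, the log2 fold change ran from -1.09 to 0.60 for ATM, -0.48 to 0.18 for ATR, -0.39 to 0.46 for FANCB, -0.39 to 0.51 for FANCF, -0.29 to 0.31 for FANCG, -0.10 to 0.71 for PALB2, -0.593 to 0.0570 for RAD51C and -0.303 to 0.0287 for SLX4. The count of genes called over all genes tested, 0 with edgeR on all 4 libraries, was 1437 with DESeq2, 275 with a total count of at least 1, 231 with sample quality weights and 64 to 5882 with 1 library left out. With all 4 libraries, H2AX was called with DESeq2, a total count of at least 1, sample quality weights and the replicate block. Over the alternatives with all 4 libraries its adjusted p (edgeR, limma-voom or DESeq2) ran from 1.2e-06 to 0.143. Every one of the 14 alternatives kept its sign. With 1 library left out 1 group held a single library, so calls of H2AX in those fits are not counted here. The genes lower at an unadjusted p under 0.05, 13 with edgeR on all 4 libraries, numbered 8 with library size as the only scaling and 4 to 23 with 1 library left out; the share of all genes tested that were lower was 9.01% with edgeR on all 4 libraries, 5.46% with library size only and 2.55% to 26.2% with 1 library left out. Those higher, 0 with edgeR on all 4 libraries (11.5% of all genes tested), numbered 1 with DESeq2 (13.4%) and 0 to 2 with 1 library left out (4.32% to 25.3%). The median log2 fold change of the 43 genes was -0.81 with limma-voom, -0.82 with sample quality weights, -0.81 with the replicate block and -0.91 to -0.56 with 1 library left out. The causes were not tested.

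The replicate numbers are shared between groups, but the labels tie them to no batch, and deviations of same-numbered libraries correlated at 0.04 across genes. With the replicate block edgeR called 331 genes, 1 of them (H2AX, adjusted p = 0.0149) among the 43.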

Other observations

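Levels can be compared between genes only per length. Per kilobase of exon (union of GENCODE basic exons, which need not be the exons used in these cells), H2AX was at 9.87 CPM per kb with YW-LF and 79.8 CPM per kb with DMSO. It ranked 7 of the 43 genes with YW-LF and 1 with DMSO. UBE2T, at 34.6 CPM per kb with YW-LF and 64.0 CPM per kb with DMSO, was the highest of the 43 in the YW-LF libraries, followed by FANCG at 19.2 CPM per kb with YW-LF and 18.6 CPM per kb with DMSO. ATRIP was the lowest in both groups, at 0.515 CPM per kb with YW-LF and 0.866 CPM per kb with DMSO.

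ALB, a liver marker among the genes of other cell types, had 59 and 55 counts in the YW-LF libraries and 2 and 6 counts in the DMSO libraries; its part in the results was not tested.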
